A study of Mus musculus with 12 samples.

Results

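The RNA levels of 10 mouse genes of the hypoxia-inducible factor pathway were described in cultured Melan-A (MelanA in the labels), B16F0 and B16F10 cells: the factor genes Hif1a and Epas1, the prolyl hydroxylase genes Egln1 and Egln3, and the target genes Bnip3, Ankrd37, Car9, Adm, Ndrg1 and Pdk1. They are the rows of the deposited count table with these symbols, 10 of 34513 genes, and each symbol had 1 row. Melan-A is a nontumorigenic mouse melanocyte line, and B16F0 and B16F10 are mouse melanoma lines of common origin, of which B16F10 was derived by selection for lung colonization. Each line was sequenced as 2 libraries labelled without treatment and 2 libraries treated with SX-682, an inhibitor of the chemokine receptors CXCR1 and CXCR2, which makes 12 libraries in 6 groups. The dose and the duration of SX-682 for these RNA samples, the vehicle of the controls, the oxygen level and the density of the cultures are not given in the sources used here. The labels also do not say whether the replicates were separate cultures, so the p-values below measure the spread between these libraries, which may be technical.

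As background, hypoxia-inducible factors are transcription factors made of an oxygen-regulated alpha subunit, HIF-1 alpha (Hif1a) or HIF-2 alpha (Epas1), and the partner ARNT. In oxygen, the prolyl hydroxylases PHD2 (Egln1) and PHD3 (Egln3) mark the alpha subunit, which the VHL protein then sends for degradation, so the factors are controlled largely at the level of protein and the RNA of Hif1a or Epas1 does not measure their activity. When the alpha subunit is stable, the dimer binds short DNA elements and raises genes for glycolysis, pH control, mitophagy, blood vessel growth and iron handling, among them Egln1 and Egln3 themselves, which closes a feedback loop.

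The libraries held from about 48877000 to about 85322100 counts each. All 10 genes passed the expression filter and were tested among 18338 genes. The thinnest were Egln3 and Adm in Melan-A cells, with 12 to 28 and 39 to 69 counts per library, and Ankrd37 in B16F10 cells, with 44 to 104 counts. Levels are given in CPM, counts per 1000000 counts of the library, with library totals scaled by TMM, and a gene was called changed when edgeR's quasi-likelihood test, fitted to all 12 libraries and all tested genes, gave an adjusted p under 0.05. To describe the lines, 7 melanocytic marker genes were summed. The sums were 1344 to 1374 CPM in the Melan-A libraries, 15770 to 18664 CPM in B16F0 and 14947 to 24471 CPM in B16F10. All 7 were above 3 counts in every library. Tyr and Pmel, which encode tyrosinase and a melanosome protein, averaged only 0.826 and 8.11 CPM in untreated Melan-A cells. Sox10 alone averaged 670.1 CPM there, Dct 354.6, Mlana 116.5, Tyrp1 106.9 and Mitf 102.1 CPM. The Melan-A sum therefore does not by itself settle the identity of the line. With SX-682, 7 of these 7 markers fell in B16F0 and 7 of 7 in B16F10, against 4 lowered and 2 raised in Melan-A. Of all tested genes, 25.0%, 25.3% and 24.7% fell in B16F0, B16F10 and Melan-A, and 23.4% rose in Melan-A. Their part in the changes below was not tested. The sums for markers of other cells were below the melanocytic sums. The 5 endothelial markers summed to 0.0626 to 2.43 CPM, with at least 1 of Cdh5, Kdr and Emcn at 0 in 11 of the libraries. The 5 fibroblast markers summed to 8.42 to 60.9 CPM. The 4 keratinocyte markers summed to 0 to 3.39 CPM, with Krt1 at 0 in 11 libraries. The 4 leukocyte markers summed to 0.147 to 7.19 CPM, with Cd3e at 0 in 10 libraries. The fibroblast and leukocyte sums were highest in untreated Melan-A cells, at 60.6 and 60.9 and at 7.13 and 7.19 CPM.

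Sequence upstream of the transcription start was at hand for 8 of the 10 genes, from RefSeq on GRCm38.p6; for Epas1 and Ndrg1 it was not used here. The core of the hypoxia response element was searched for as ACGTG or GCGTG on both strands in the 300 bases from 250 before to 50 after each start. Each of the 8 genes held at least 1 such match in the window listed for it (of 2 windows listed for Pdk1, the other held 0), while 43.8% of all 32851 windows of this length held at least 1. The windows of the 8 genes were richer in G and C, with 54.7 to 86.0% against a median of 52.7%, and a match is not evidence of binding. The 4 genes whose RNA moved in opposite directions in different lines, Egln1, Bnip3, Ankrd37 and Car9, are shown as examples. Whether the number or place of the matches bears on the responses was not tested. Capitals mark either motif, read on either strand. The stretches run from base -250 to the base before the first exonic base of GENCODE M21 in the window. The Ankrd37 stretch lies outside exons but inside the annotated gene, which extends further upstream to 46005707. For Car9, where the only match falls in an annotated exon, 25 bases around the match are given.
Bnip3, chr7:138909520-138909756, minus strand: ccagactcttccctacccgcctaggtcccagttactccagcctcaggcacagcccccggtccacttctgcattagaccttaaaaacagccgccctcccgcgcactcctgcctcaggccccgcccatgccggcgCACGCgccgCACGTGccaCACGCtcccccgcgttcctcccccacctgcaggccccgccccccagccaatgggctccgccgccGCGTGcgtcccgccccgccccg
Ankrd37, chr8:45999868-46000100, minus strand: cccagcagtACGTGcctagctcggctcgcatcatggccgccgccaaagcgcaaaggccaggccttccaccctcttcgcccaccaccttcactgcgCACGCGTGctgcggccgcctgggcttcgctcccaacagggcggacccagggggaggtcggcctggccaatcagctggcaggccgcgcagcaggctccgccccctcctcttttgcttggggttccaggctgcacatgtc
Egln1, chr8:124949325-124949504, minus strand: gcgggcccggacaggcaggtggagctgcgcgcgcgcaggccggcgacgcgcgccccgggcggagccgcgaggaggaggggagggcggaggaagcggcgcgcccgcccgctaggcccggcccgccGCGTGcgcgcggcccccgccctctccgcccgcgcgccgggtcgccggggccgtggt
Car9, chr4:43506998-43507022, plus strand: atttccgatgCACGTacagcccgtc
The Bnip3 stretch held 5 matches, 4 of them within the bases from -117 to -95, and 2 of these overlap in the palindrome CACGTG, which 7.15% of all windows hold and which Hif1a holds as well. The Ankrd37 stretch held 3 matches, starting at -241, -155 and -152, of which the last pair overlap on opposite strands, with a further one at -6 in an annotated exon. Egln1 had a match at -126 and another at -68, inside its annotated exon. Car9 had its match from -18 to -14, read on the opposite strand. The remaining windows held 3 matches in Hif1a, 2 in Adm, 2 in Pdk1 and 1 in Egln3.

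Before treatment, the gene of HIF-1 alpha was highest in Melan-A cells and lowest in B16F10. Hif1a, on chromosome 12 from 73901375 to 73947530 (GRCm38), stood at 239.6 and 236 CPM in Melan-A controls, 175 and 169.6 CPM in B16F0 and 113 and 109.5 CPM in B16F10. No library of one line overlapped those of another. The log2 difference was -0.47 in B16F0 against Melan-A (SE 0.027, edgeR's quasi-likelihood test, adjusted p = 1.2e-15), -1.09 in B16F10 against Melan-A (SE 0.028, adjusted p = 1.6e-24) and -0.63 in B16F10 against B16F0. In bulk RNA, a lower level in each cell and fewer cells with the transcript cannot be told apart. Epas1, the gene of HIF-2 alpha on chromosome 17 from 86753700 to 86833410, had a far lower level than Hif1a per kilobase of exon in each line, at 4.45, 2.19 and 2.58 CPM per kilobase against 40.3, 29.2 and 18.9. Its libraries held 23.7 and 26.2 CPM in Melan-A, 11.7 and 12.8 CPM in B16F0 and 14.3 and 14.6 CPM in B16F10. Both B16 lines were below Melan-A, by log2 differences of -1.03 and -0.79, and B16F10 was slightly above B16F0, by 0.24 (SE 0.077, adjusted p = 0.0083). This last difference was 0.18 and no longer passed (adjusted p = 0.12) without replicate 1 of the B16F0 controls.

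The hydroxylase genes followed different patterns. Egln1, on chromosome 8 from 124908587 to 124949324, was alike in Melan-A controls (137 and 137 CPM) and B16F0 controls (139 and 137 CPM), whose libraries overlapped, and lower in B16F10 (96.6 and 103 CPM). The log2 difference between B16F0 and Melan-A was 0.0085 (SE 0.030, adjusted p = 0.81, edgeR's quasi-likelihood test), and that between B16F10 and B16F0 was -0.46 (SE 0.032). Egln3, on chromosome 12 from 54178981 to 54203860, was nearly off in Melan-A cells, with 0.324 and 0.231 CPM from 28 and 21 counts. It stood at 27.6 and 26.3 CPM in B16F0 and at 10.3 and 10.3 CPM in B16F10. The fitted differences from Melan-A were 97.0-fold in B16F0 (log2 6.60, SE 0.13) and 37.1-fold in B16F10 (log2 5.21, SE 0.14), and B16F10 was 2.62-fold below B16F0. Among all tested genes, ranked per kilobase within a group, Egln3 was at percentile 16.8 in Melan-A controls, 74.2 in B16F0 and 56.6 in B16F10, while Egln1 stayed between 88.7 and 92.8.

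Most target genes were at their highest in untreated B16F0 cells. Bnip3, a mitophagy receptor gene on chromosome 7 from 138890836 to 138909519, held 25.9 and 23.8 CPM in Melan-A, 89.8 and 90.8 CPM in B16F0 and 45.6 and 48.5 CPM in B16F10. Car9, for the carbonic anhydrase that acidifies the outside of hypoxic tumor cells, on chromosome 4 from 43506966 to 43513729, held 8.19 and 7.85 CPM, 33.9 and 33.7 CPM, and 4.17 and 3.90 CPM in the same order. Ankrd37, an ankyrin repeat gene on chromosome 8 from 45996902 to 46005707, held 3.59 and 3.47 CPM in Melan-A and 6.03 and 5.79 CPM in B16F0, but 0.794 and 1.63 CPM in the B16F10 controls, which stood apart from each other. These 3 genes shared their maximum in B16F0, with B16F10 below B16F0 by 1.92-fold for Bnip3, 4.85-fold for Ankrd37 and 8.39-fold for Car9. For Ankrd37 this was a log2 difference of -2.28, which was -2.88 without replicate 2 of the B16F10 controls and -1.85 without replicate 1. Its difference from Melan-A, -1.53, was -2.14 and -1.11 without the same libraries. Pdk1, whose kinase keeps pyruvate out of the citrate cycle, on chromosome 2 from 71873224 to 71903858, held 74.8 and 73.4 CPM in Melan-A, 88.3 and 88.4 CPM in B16F0 and 43.2 and 43.4 CPM in B16F10. Its excess in B16F0 over Melan-A was small, at 1.19-fold, and its level in B16F10 was 2.04-fold below B16F0.

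Adm and Ndrg1 broke that order. Adm, which encodes the vasodilator peptide adrenomedullin on chromosome 7 from 110627661 to 110629820, held 0.637 and 0.429 CPM in Melan-A, 4.62 and 4.48 CPM in B16F0 and 73.5 and 74.7 CPM in B16F10. The steps were 8.55-fold from Melan-A to B16F0 (log2 3.10, SE 0.14, adjusted p = 3.5e-18, edgeR's quasi-likelihood test) and 16.3-fold from B16F0 to B16F10 (log2 4.03, SE 0.070, adjusted p = 3.8e-28). Adm was thus the member with the largest difference between lines, 139-fold between B16F10 and Melan-A. Ndrg1, a stress- and differentiation-related gene on chromosome 15 from 66929318 to 66969640, held 181 and 179 CPM in Melan-A, 87.0 and 85.1 CPM in B16F0 and 70.7 and 73.8 CPM in B16F10, and was 2.09-fold and 2.49-fold below Melan-A in the B16 lines. Per kilobase of exon, the order of the 10 untreated genes was led by Hif1a in Melan-A (40.3 CPM per kilobase ± 0.43, SD, n = 2), by Bnip3 in B16F0 (39.9 ± 0.33) and by Adm in B16F10 (45.8 ± 0.55). It ended with Egln3 (0.104 ± 0.025), Epas1 (2.19 ± 0.15) and Ankrd37 (0.787 ± 0.38) in those lines, and 0 of the 9 neighbouring pairs in each order overlapped between their 2 libraries. In the test, 6 of the 10 genes were higher and 3 lower in B16F0 than in Melan-A (35.3% and 40.6% of all tested genes), 3 were higher and 7 lower in B16F10 than in Melan-A (33.4% and 40.8%), and 2 were higher and 8 lower in B16F10 than in B16F0 (30.8% and 31.2%). The 3 comparisons share their control libraries, so their counts are not independent.

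**Figure D1:**
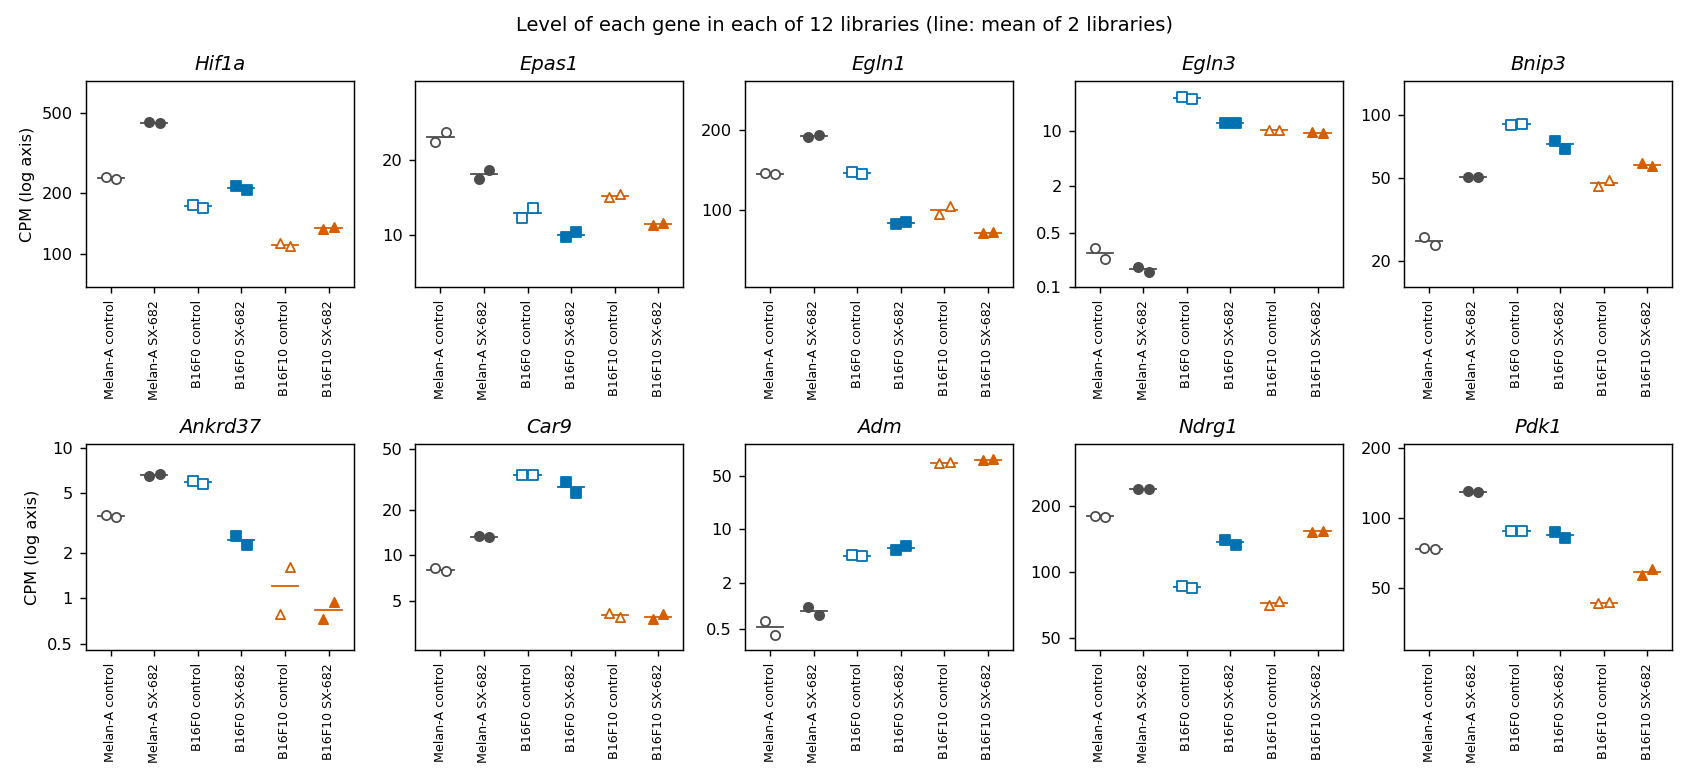
Level of each of the 10 genes in each of the 12 libraries, in CPM on a log axis, with a panel per gene, open symbols for controls, filled symbols for SX-682 and a line at the mean of 2 libraries. The SX-682 libraries lie above the controls in every line for Hif1a, Adm and Ndrg1 and below them for Epas1 and Egln3. The changes of Adm in B16F10 and of Egln3 in Melan-A and B16F10 did not pass the test. Adm climbs from under 1 CPM in Melan-A to over 73 CPM in B16F10.

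With SX-682, most of the 10 genes rose in Melan-A cells and most fell in B16F0 cells, while B16F10 cells were mixed. In Melan-A cells 8 rose and 1 fell (23.4% and 24.7% of all tested genes rose and fell), with a median log2 fold change of 0.72 against 0.00 over all genes. In B16F0 cells 3 rose and 6 fell (25.1% and 25.0% of all genes), with a median of -0.28, and in B16F10 cells 4 rose and 2 fell (25.5% and 25.3%), with a median of 0.040. The median size of change, regardless of sign, was 0.72 in Melan-A against 0.31 for all genes, but 0.32 against 0.32 in B16F0 and 0.29 against 0.36 in B16F10. These medians are descriptions, with no test. Hif1a and Ndrg1 rose in all 3 lines (11.3% of all tested genes), Epas1 fell in all 3 (11.7%), and Egln1, Bnip3, Ankrd37 and Car9 rose in 1 line or more and fell in another (9.59%). Replicates lay close together (biological coefficient of variation 2.78%), and changes of small size could pass. An exact permutation of 2 against 2 libraries cannot give a 2-sided p below 0.333, so the calls rest on the spread shared across genes.

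**Figure D2:**
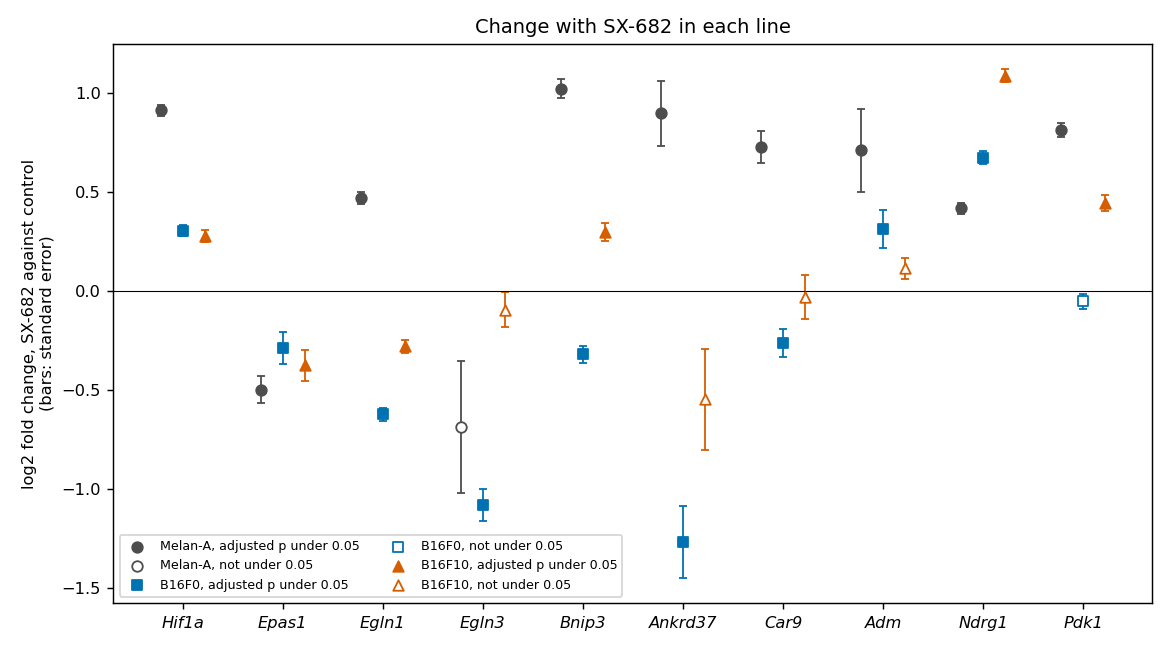
Log2 fold change of the 10 genes with SX-682 against control in each line, with bars of 1 standard error, filled where the adjusted p was under 0.05 and open where it was not. The Melan-A points lie above 0 for all but Epas1 and Egln3, and the B16F0 points lie below it for all but Hif1a, Adm and Ndrg1.

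Of the factor genes, Hif1a rose in every line and most in Melan-A. Its Melan-A libraries went from 239.6 and 236 CPM to 448 and 446 CPM, a log2 fold change of 0.91 (SE 0.027, 1.88-fold, adjusted p = 8.3e-22, edgeR's quasi-likelihood test). In B16F0 it went to 217 and 207 CPM (log2 0.30, SE 0.028, adjusted p = 1.5e-10), and in B16F10 to 133 and 137 CPM (log2 0.27, SE 0.029, adjusted p = 2.4e-09). The treated and control libraries did not overlap in any line. The rise was larger in Melan-A than the mean of the B16 lines by 0.62 on the log2 scale, given as -0.62 for B16 minus Melan-A (SE 0.033, adjusted p = 2.8e-15), and between the B16 lines it differed by -0.028 (SE 0.040, adjusted p = 0.70). Epas1 moved the other way. It went to 16.9 and 18.3 CPM in Melan-A, 9.79 and 10.2 CPM in B16F0 and 11 and 11.2 CPM in B16F10, and fell by 0.50, 0.29 and 0.38 on the log2 scale. Its change did not pass the test of a difference among lines (range 0.21, adjusted p = 0.25), and its B16F0 value was -0.23 with an adjusted p of 0.064 when replicate 2 of the B16F0 controls was left out. Of the exonic bases of Hif1a, 5.60% are also annotated to the antisense gene Gm15283 and 2.51% to Gm49321 on its own strand, and whether the counting used strand is not given in the sources used here.

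Egln1, the gene of PHD2, rose in Melan-A and fell in both B16 lines. It reached 187 and 191 CPM in Melan-A (log2 0.47, SE 0.030, adjusted p = 7.2e-14, edgeR's quasi-likelihood test), and dropped to 88.4 and 90.3 CPM in B16F0 (log2 -0.63, SE 0.032, adjusted p = 3.4e-16) and to 81.7 and 82.8 CPM in B16F10 (log2 -0.28, SE 0.033, adjusted p = 1.7e-08). The 3 treated groups thus spread from 81.7 to 191 CPM while the controls had spread from 96.6 to 139 CPM. Egln3 fell in B16F0, from 27.6 and 26.3 to 12.7 and 12.8 CPM (log2 -1.08, SE 0.080, adjusted p = 1.3e-12). In B16F10 it held 9.84 and 9.47 CPM against 10.3 and 10.3 CPM (log2 -0.096, adjusted p = 0.396), and the change in B16F10 differed from that in B16F0 by 0.99 (SE 0.12, adjusted p = 1.2e-07). In Melan-A, 13 and 12 counts stood against 28 and 21 (log2 -0.69, SE 0.33, adjusted p = 0.090), too few for a firm statement.

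The mitochondrial and metabolic targets rose most clearly in Melan-A. Bnip3 rose 2.03-fold there, from 25.9 and 23.8 to 50.1 and 50.6 CPM (log2 1.02, SE 0.047, adjusted p = 4.1e-17, edgeR's quasi-likelihood test). It fell in B16F0 to 75.3 and 69.0 CPM (log2 -0.32, SE 0.043, adjusted p = 2.5e-07) and rose in B16F10 to 58.6 and 56.9 CPM (log2 0.30, SE 0.046, adjusted p = 2.7e-06), so the lines drew together from 23.8 to 90.8 CPM before treatment to 50.1 to 75.3 CPM after it. The difference between the B16 lines was 0.62 (SE 0.063, adjusted p = 7.3e-09). A share of 22.3% of its exonic bases is also annotated to the antisense gene Gm45507. Pdk1 rose in Melan-A to 131 and 129 CPM (log2 0.81, SE 0.035, adjusted p = 6.1e-18) and in B16F10 to 57.0 and 60.7 CPM (log2 0.44, SE 0.040, adjusted p = 8.1e-11). In B16F0 it held 87.6 and 82.2 CPM against 88.3 and 88.4 CPM (log2 -0.055, adjusted p = 0.225), and -0.10 with an adjusted p of 0.047 without replicate 1 of the treated libraries.

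Ankrd37 had the widest span of responses. In Melan-A it went to 6.48 and 6.65 CPM (log2 0.90, SE 0.16, adjusted p = 3.3e-05, edgeR's quasi-likelihood test), and in B16F0 to 2.61 and 2.26 CPM (log2 -1.27, SE 0.18, adjusted p = 6.0e-07), which exchanged the order of these lines. In B16F10 the treated libraries held 0.726 and 0.940 CPM and overlapped the controls at 0.794 and 1.63 CPM (log2 -0.55, SE 0.25, adjusted p = 0.0735). That value was decided by 1 library: without replicate 1 of the B16F10 controls it was -0.97 (adjusted p = 0.0012), and without replicate 2 it was 0.060 (adjusted p = 0.94). Of its exonic bases, 22.7% are also annotated to Lrp2bp and 3.70% to Ufsp2 on the opposite strand. Over all libraries, Lrp2bp held 351 counts and Ufsp2 held 36089. Whether reads of these genes entered the counts of Ankrd37 was not tested. Car9 rose in Melan-A to 13.3 and 13.2 CPM (log2 0.73, SE 0.079, adjusted p = 5.2e-09) and fell in B16F0 to 30.3 and 25.8 CPM (log2 -0.27, SE 0.069, adjusted p = 0.0018). Without the treated B16F0 library of replicate 2, the Car9 value there was -0.16 (adjusted p = 0.11). In B16F10, 3.79 and 4.09 CPM overlapped 4.17 and 3.90 CPM (log2 -0.033, SE 0.11, adjusted p = 0.865). Car9 shares 9.29% of its exonic bases with the antisense gene Gm12454.

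Ndrg1 was the target that rose in all 3 lines, in the reverse order of its untreated level. It went to 240.6 and 239.6 CPM in Melan-A (log2 0.42, SE 0.028, adjusted p = 2.5e-13, edgeR's quasi-likelihood test), 140.3 and 134 CPM in B16F0 (log2 0.67, SE 0.031, adjusted p = 2.2e-17) and 153 and 154 CPM in B16F10 (log2 1.09, SE 0.031, adjusted p = 2.4e-22). Of its exonic bases, 6.35% are also annotated to the antisense gene Gm17035. It was the only one of the 10 genes whose rise was larger in the B16 lines than in Melan-A by the test of that difference (0.46, SE 0.036, adjusted p = 1.0e-11). Adm passed the test in Melan-A and B16F0. In B16F0 it went to 5.33 and 6.04 CPM (log2 0.31, SE 0.096, adjusted p = 0.0077), and in B16F10 to 78.9 and 81.4 CPM (log2 0.11, SE 0.052, adjusted p = 0.075). In Melan-A it held 0.968 and 0.773 CPM with SX-682 (log2 0.71, SE 0.21, adjusted p = 0.0053). These calls were fragile: the Melan-A value was 0.45 (adjusted p = 0.14) without replicate 2 of the controls and 0.55 (adjusted p = 0.090) without replicate 1 of the treated libraries, and the B16F0 value was 0.23 (adjusted p = 0.11) without replicate 2 of the treated libraries.

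The differences between lines were tested directly. An F-test over the 3 lines called 9 of the 10 genes, all but Epas1 (47.4% of all tested genes). The mean response of the B16 lines differed from that of Melan-A for 7 of the 10 genes (35.8% of all genes) and was lower for 6 of them (17.1% of all genes): Hif1a, Egln1, Bnip3, Ankrd37, Car9 and Pdk1. The largest of these were -1.80 for Ankrd37 (SE 0.23), -1.03 for Bnip3 (SE 0.057), -0.92 for Egln1 (SE 0.038) and -0.88 for Car9 (SE 0.10). For Epas1 the difference was 0.17 (SE 0.089, adjusted p = 0.16, edgeR's quasi-likelihood test), for Egln3 0.0996 (SE 0.33, adjusted p = 0.91) and for Adm -0.50 (SE 0.21, adjusted p = 0.0733). The Adm difference passed when any of 3 libraries was left out, at -0.81 (adjusted p = 0.017) without replicate 1 of the Melan-A controls, -0.66 (adjusted p = 0.042) without replicate 2 of the treated Melan-A libraries and -0.55 (adjusted p = 0.046) without replicate 2 of the treated B16F0 libraries. The B16F10 response differed from the B16F0 response for 5 genes, Egln1, Egln3, Bnip3, Ndrg1 and Pdk1 (30.3% of all genes), and was the higher for each of them. For Ankrd37 that difference was 0.72 (SE 0.31, adjusted p = 0.087), and 1.33 (adjusted p = 0.0018) without replicate 2 of the B16F10 controls.

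The wider pathway was described with 8 lists of genes. The counts of each list stand beside a background, over all tested genes, of 23.4% raised and 24.7% lowered in Melan-A, 25.1% and 25.0% in B16F0, and 25.5% and 25.3% in B16F10, and a share near these is no result about the list. Among 19 partners and regulators of the factors, 6 rose and 8 fell in Melan-A, 7 rose and 6 fell in B16F0, and 6 rose and 5 fell in B16F10. Arnt, the common partner subunit, rose in all 3 lines, by log2 values of 0.28, 0.28 and 0.44 (given here and below in the order Melan-A, B16F0, B16F10). Hif1an, whose hydroxylase FIH blocks the factors' transactivation, fell in all 3, by 0.24, 0.31 and 0.58, and so did Hsp90aa1, a chaperone of HIF-1 alpha, by 0.24, 0.39 and 0.31. Cited2, which competes with the factors for the coactivators CBP and p300, fell by 0.31 in Melan-A and rose by 0.20 in B16F0 and 0.78 in B16F10. Ep300, the gene of p300, changed by -0.079 and 0.15 in Melan-A and B16F0.

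In the glycolysis and glucose uptake list, more genes rose than fell in Melan-A and more fell than rose in the B16 lines. Of 23 tested genes, 20 rose and 0 fell in Melan-A (median log2 fold change 0.41), whereas 6 rose and 12 fell in B16F0 (median -0.15) and 8 rose and 12 fell in B16F10 (median -0.11). By edgeR's quasi-likelihood test, 22 of the 23 had a lower response in the B16 lines than in Melan-A (17.1% of all tested genes), and 12 rose in 1 line or more and fell in another (9.59%). Hk2, the hexokinase gene that HIF-1 induces, went up by 0.65 on the log2 scale in Melan-A (SE 0.025) and changed by -0.66 and -0.65 in the B16 lines (SE 0.027 for both). Slc2a1, for the glucose transporter GLUT1, had 0.80, -0.31 and -0.21. Against 11.3% of all tested genes, 3 of the 23 rose in all 3 lines. Of these, Eno2 rose by 1.0, 1.05 and 0.66, Gbe1 for the glycogen branching enzyme by 0.70, 0.27 and 0.77, and Aldoa by 0.60, 0.079 and 0.44. Before treatment, 17 of the 23 were higher and 5 lower in B16F0 than in Melan-A (35.3% and 40.6% of all tested genes), 15 were higher and 6 lower in B16F10 than in Melan-A (33.4% and 40.8%), and 4 were higher and 18 lower in B16F10 than in B16F0 (30.8% and 31.2%).

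**Figure D3:**
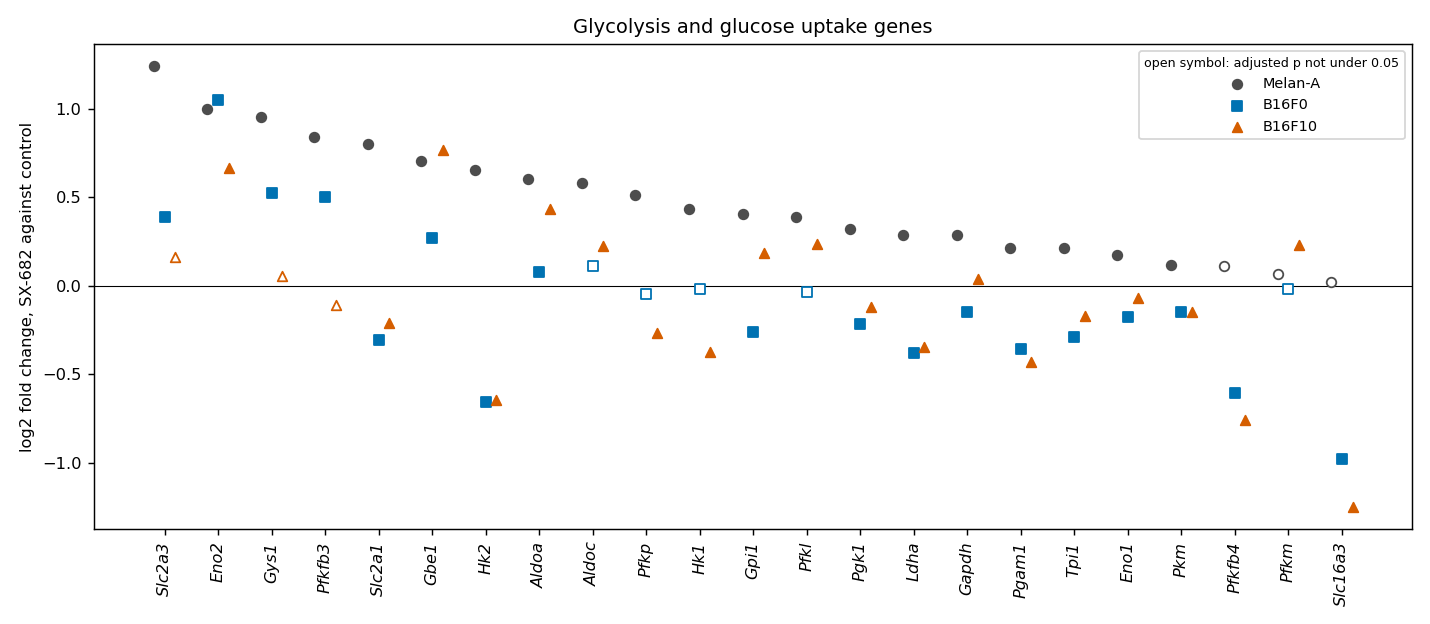
Log2 fold change with SX-682 of the 23 tested glycolysis and glucose uptake genes in each line, ordered by the Melan-A value, with open symbols where the adjusted p was not under 0.05. All Melan-A points lie above 0, and the B16F0 points of 12 genes and the B16F10 points of 12 genes lie below it with filled symbols.

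In the mitochondria and mitophagy list, 6 of 10 tested genes rose and 2 fell in Melan-A, 2 rose and 6 fell in B16F0, and 3 rose and 4 fell in B16F10, against a background of 23.4 to 25.5% each way over all tested genes. Higd1a and Fam162a, a respiratory chain factor and a mitochondrial protein tied to cell death, both hypoxia-induced, rose in Melan-A by 0.41 and 0.63 and fell in B16F0 by 0.34 and 0.30. In B16F10, Higd1a fell by 0.28 and Fam162a had 0.053 (adjusted p = 0.20, edgeR's quasi-likelihood test). Lonp1, which encodes a protease of the mitochondrial matrix, rose in all 3 lines by 0.54, 0.57 and 0.98, and the NAD carrier gene Slc25a51 by 0.17, 0.15 and 0.57. Pdp2, for the phosphatase that opposes Pdk1, fell by 0.26, 0.58 and 0.78. Among 12 tested angiogenic and secreted genes, 4 rose and 2 fell in Melan-A, 1 rose and 4 fell in B16F0, and 4 rose and 2 fell in B16F10. Vegfa, the main angiogenic target of the factors, had log2 fold changes of 0.80 (SE 0.039), -0.44 (SE 0.044) and 0.61 (SE 0.048), the same signs as Bnip3.

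Of 11 matrix genes, 5 rose and 2 fell in Melan-A, 4 rose and 4 fell in B16F0, and 3 rose and 5 fell in B16F10, against 23.4 to 25.5% of all tested genes each way. The collagen prolyl hydroxylase genes P4ha2 and P4ha1 rose in all 3 lines, P4ha2 by 0.98, 0.44 and 0.57 and P4ha1 by 0.22, 0.27 and 0.26. Their partner subunit P4hb rose by 0.17 in Melan-A and fell by 0.30 and 0.44 in B16F0 and B16F10, and Plaur, the urokinase receptor gene, had 0.30, 0.11 (adjusted p = 0.17, edgeR's quasi-likelihood test) and -0.64. Among 7 genes of histone demethylases and related Jumonji enzymes, which share their cofactors with the prolyl hydroxylases, 6 rose and 1 fell in Melan-A, and 4 rose and 3 fell in each B16 line. Kdm5b rose by 0.65, 0.84 and 1.0, Kdm4c by 0.44, 0.70 and 0.54 and Kdm6b by 0.41, 0.47 and 0.73. Kdm3a and Jmjd6 rose in Melan-A, by 0.21 and 0.38, and fell in both B16 lines, Kdm3a by 0.20 and 0.078 and Jmjd6 by 0.16 and 0.18.

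Of 18 tested repressor and stress genes, 13 rose and 3 fell in Melan-A, 8 rose and 4 fell in B16F0, and 11 rose and 5 fell in B16F10, against 23.4 to 25.5% of all tested genes each way. Hmox1, the heme oxygenase gene, rose by 1.13, 1.04 and 1.21, with a difference among lines that passed the test (adjusted p = 0.0037), and the transcription factor genes Bhlhe41 and Klf6 rose by 1.74, 1.13 and 1.19 and by 0.62, 0.99 and 1.46. Bhlhe40, the related repressor gene and a direct HIF target, rose by 1.24 in Melan-A and fell by 0.70 in B16F0, and had -0.033 in B16F10 (adjusted p = 0.36, edgeR's quasi-likelihood test). Wsb1 fell by 0.42 and 0.47 in Melan-A and B16F10 and rose by 0.35 in B16F0. Among 14 genes related to the 10 by sequence or by receptor, 6 rose and 1 fell in Melan-A, 4 rose and 4 fell in B16F0, and 6 rose and 2 fell in B16F10. Ndrg2 rose alongside Ndrg1 by 0.33, 0.42 and 0.55, while Ndrg4 had 0.16, -0.35 and -0.15. Pdk2 rose in all 3 lines by 0.33, 0.73 and 0.68, Pdk3 had 0.15, -0.093 and 0.11, and Car14 fell by 0.65, 0.37 and 0.63.

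**Figure D4:**
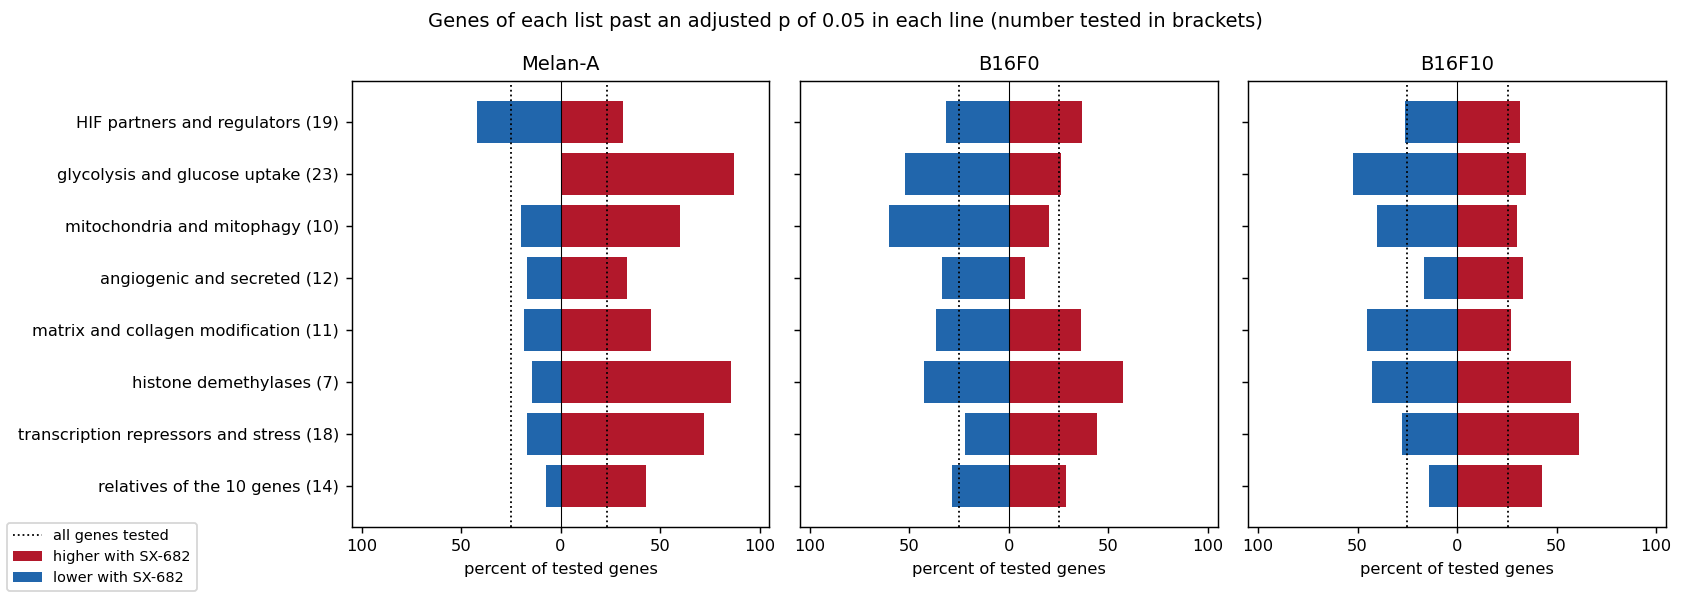
Percent of the tested genes of each list that rose (right) or fell (left) with SX-682 in each line by an adjusted p under 0.05, with dotted lines at the percent of all tested genes. In Melan-A the glycolysis bar extends to the right only, with 20 of 23 genes, while in B16F0 and B16F10 its left bar is the longer.

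The genes whose profile over the 12 libraries was most like each of the 10 were taken by the root mean square difference of centred log2 CPM among 10956 genes. For Hif1a, the closest were Rhobtb1 (0.13 against a root mean square of 0.65 for Hif1a itself) and Gm45871 (0.15), and for Epas1 they were Itga6 (0.089) and Pitpna (0.10). Egln1 was closest to Ccdc57 (0.10) and Sowahc (0.14), Ndrg1 to Trim45 (0.10) and Zfp358 (0.11), and Pdk1 to Itpk1 (0.13) and Ing2 (0.14). Bnip3 was nearest to Pde4a (0.20) and Tpra1 (0.20), and Car9 to Akr1b8 (0.28) and Ggt7 (0.29), of which Akr1b8 belongs to a family of near copies whose reads may be split. The more variable genes had looser neighbours, Map3k5 (0.39) and Mc1r (0.41) for Egln3, Fam184b (0.44) and Pfkfb4 (0.46) for Ankrd37, and Pkp2 (0.50) and Pxdc1 (0.55) for Adm. Within the 10, Hif1a and Pdk1 were the closest pair, at 0.28. The measure takes in the differences between lines, so a close gene need not share the response to SX-682. Akr1b8 had log2 fold changes of 0.025, -0.054 and -0.048 in Melan-A, B16F0 and B16F10, where Car9 had 0.73, -0.27 and -0.033. Trim45 had 0.45, 0.49 and 0.91, beside 0.42, 0.67 and 1.09 for Ndrg1. The 12 libraries come from 3 lines and 6 groups and are not 12 independent points.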

How the data were processed

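RNA of 3 cell lines, without treatment or with SX-682, was sequenced in 12 libraries, 2 in each of 6 groups. The authors deposited whole-number read counts per gene, not normalized, on mm10 (GRCm38) coordinates. Per the labels, the submitters' processing notes name cutadapt, STAR and DESeq2; the counting program and its strand setting are not given in the sources used here. The symbols, coordinates and lengths of the 10 genes were matched to GENCODE M21.

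Here the deposited counts were scaled by TMM, filtered by edgeR's expression filter (18338 of 34513 genes) and tested with edgeR 4.0.16 (quasi-likelihood F-test, R 4.3.3) in 1 fit of all libraries, with Benjamini-Hochberg adjustment at 0.05. Contrasts were SX-682 against control within each line, untreated lines against each other, and differences of the responses. A count of 3 was taken as the floor of a library, 0.0330 to 0.0623 CPM; it covers counting error only. The spread of replicates exceeded that of sampling (chi-square divided by genes, 2.73 to 5.05), and each library was taken as 1 sample.

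The members and the lists were chosen with earlier results of these data known. Named genes were all members; per list, up to 3 changed in 1 direction in all lines with the largest smallest change and up to 2 changed in opposite directions with the widest range; and the 2 most alike genes of each member, with a mean log2 CPM of at least 1. 1 gene that the rule selects is not reported here. Alternatives were DESeq2 1.42.0, scaling by RLE, no filter on low counts, a minimum of 10 counts in each library, the replicate number as a block, each library left out, a separate fit of each line and, added after the data were seen, a test against a 1.5-fold change.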

Additional observations from a re-analysis of the deposited data

Results flagged for a closer look

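The response to SX-682 differed among the 3 lines for 9 of the 10 genes by the F-test of that difference in edgeR's quasi-likelihood fit, which 47.4% of all tested genes also passed. The range of the log2 fold change over the lines was 2.16 for Ankrd37 (adjusted p = 5.4e-08), 1.34 for Bnip3 (adjusted p = 9.3e-16), 1.09 for Egln1 (adjusted p = 8.5e-18), 0.99 for Egln3 (adjusted p = 2.2e-07), 0.99 for Car9 (adjusted p = 1.8e-08) and 0.87 for Pdk1 (adjusted p = 6.6e-14). It was 0.67 for Ndrg1 (adjusted p = 4.0e-13), 0.64 for Hif1a (adjusted p = 1.1e-14) and 0.60 for Adm (adjusted p = 0.031). The Adm range was 0.34 (adjusted p = 0.17) without replicate 2 of the Melan-A controls, 0.44 (adjusted p = 0.13) without replicate 1 of the treated Melan-A libraries and 0.91, still past the threshold, without replicate 1 of the Melan-A controls. It missed the threshold too without replicate 2 of the B16F10 controls (0.60, adjusted p = 0.058) and without replicate 1 of the treated B16F10 libraries (0.59, adjusted p = 0.061).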

How the results depend on the processing

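With DESeq2, scaling by RLE, no filter, a filter of 10 counts in each library, the replicate block or a separate fit of the line, every count of genes and of members stayed within 1.5 times its value, and the values of single members kept direction and side of the threshold in 87 of 90 cases with DESeq2, 89 of 90 with RLE, 90 of 90 with no filter, 88 of 90 with the filter of 10 counts, 89 of 90 with the block and 28 of 30 with separate fits. Same-numbered control and treated libraries did not deviate together (correlations of -0.028, -0.011 and -0.0089 in Melan-A, B16F0 and B16F10). These values cannot show whether same-numbered samples were handled as pairs. With the replicate block the only call to change was the Ankrd37 difference between the B16 lines, 0.76 (adjusted p = 0.037, edgeR's quasi-likelihood test). DESeq2 also called Ankrd37 in B16F10 (-0.56, adjusted p = 0.049) and Adm for B16 minus Melan-A (-0.50, adjusted p = 0.042), as did the filter of 10 counts for Adm (-0.50, adjusted p = 0.046); a separate fit of the line lost Adm in Melan-A (0.71, adjusted p = 0.055) and called it in B16F10 (0.11, adjusted p = 0.0045). For these the cause was not tested. RLE scaling moved the median of all genes between untreated B16F10 and Melan-A from -0.10 to -0.13 and that between B16F0 and Melan-A from -0.060 to -0.093.

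Directions reversed only for values that did not pass the test: Egln1 in untreated B16F0 against Melan-A (-0.025 with DESeq2, -0.025 with RLE, -0.033 with the filter of 10 counts), and, with a library left out, Egln1 there (-0.0029 to a highest value of 0.026), Ankrd37 in B16F10 (-0.97 to 0.060), Car9 in B16F10 (-0.089 to 0.015), the Hif1a difference between the B16 lines (-0.062 to 0.0013) and the Egln3 difference of B16 minus Melan-A (-0.17 to 0.32). Single reversals within these ranges were 0.012 for Car9 and -0.0031 for Egln3. With a library left out, 1057 of 1080 values of members kept direction and side of the threshold. Members higher in untreated B16F10 than B16F0 numbered between 1 and 2 with a library left out, since Epas1 was lost without replicate 1 of the B16F0 controls.

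A test against a 1.5-fold change, by its construction, left fewer calls: 3 members higher and 0 lower in Melan-A (469 and 438 genes), 1 and 2 in B16F0 (719 and 620), 1 and 0 in B16F10 (869 and 765), 1 and 5 in untreated B16F10 against B16F0 (1804 and 2340), 1 for B16F10 minus B16F0 (259) and 4 for B16 minus Melan-A (485). In untreated B16F0 and B16F10 against Melan-A it called 3320 higher and 4534 lower and 2780 higher and 4544 lower genes. Under this test, Egln1 lost its calls with SX-682 in every line, and Bnip3 those in B16F0 and B16F10. Ankrd37 lost its call in Melan-A, and Car9 lost those in Melan-A and B16F0, so these 4 genes no longer passed in opposite directions. Hif1a lost its calls with SX-682 in B16F0 and B16F10, Epas1 in every line and Ndrg1 in Melan-A. No member thus passed in every line under this test. Untreated Hif1a also lost the calls of B16F0 against Melan-A and of B16F10 against B16F0. Counts were lowest for Egln3 and Adm in Melan-A, at 12 to 69 a library. Ankrd37 in the B16F10 controls held 48 and 104 counts, and its values there turn on which of the 2 libraries is kept.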

Other observations

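4 genes of the lists outside the rule for named genes were chosen after their values were seen. Stc1, a secreted glycoprotein gene induced in hypoxia, fell in B16F0 from a mean of 4.19 to 0.805 CPM (log2 -2.39, adjusted p = 7.6e-13, edgeR's quasi-likelihood test, n = 2 per group) and in B16F10 from 20.6 to 2.15 CPM (log2 -3.26, adjusted p = 1.4e-18), and averaged 0.102 CPM in untreated and 0.150 CPM in treated Melan-A cells (log2 0.56, adjusted p = 0.32). Slc16a3, for the lactate exporter MCT4, fell in B16F0 from 108 to 54.7 CPM (log2 -0.98) and in B16F10 from 7.12 to 3.0 CPM (log2 -1.25), and averaged 0.460 CPM in untreated and 0.463 CPM in treated Melan-A cells. Ddit4, the stress gene that restrains mTORC1, rose in every line, by 0.38, 0.84 and 1.97 in the order Melan-A, B16F0, B16F10, and Vldlr, a lipoprotein receptor gene, rose by 1.42 in B16F0 and 2.10 in B16F10, with -0.081 in Melan-A (adjusted p = 0.28).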
